A study of Mus musculus with 10 samples.

Results

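The DNA replication and S phase genes described here are 51 genes, chosen by name from the 53801 genes of the deposited table, whose products license, unwind, copy and repackage DNA when a cell divides. They were followed through bulk RNA sequencing of sorted cells from the dorsal brain of mouse embryos. The study set cells sorted as NG2+ against cells sorted as GFAP+, with 5 libraries of each. Cspg4 encodes NG2, a proteoglycan of the cell surface. GFAP belongs to the intermediate filaments of astroglial cells. Both groups carried the wild-type genotype. Both had received StarTrack, a set of reporter plasmids for tracing cell lineages, by in utero electroporation at embryonic day 12, and both were collected at embryonic day 14. The labels call the cells of both groups neural stem cells and put every library in batch 1. They do not say whether the libraries of a group come from separate embryos or litters, so p-values measure only the spread between these samples, which may be technical.

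Replication starts at origins that are licensed in G1, when the origin recognition complex, CDC6 and CDT1 load the MCM2-7 helicase onto DNA. In S phase the helicase is switched on by CDC45 and the GINS complex, primase and the polymerases copy both strands around the sliding clamp PCNA, and ribonucleotide reductase supplies the building blocks. Many of these genes are known targets of the E2F transcription factors, which are released from the retinoblastoma protein as cells enter S phase. In the embryonic cortex, radial glia and intermediate progenitors pass through S phase, while neurons have left the cell cycle.

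Library totals lay between 14256176 and 17569730 counts in the NG2 group and between 12945436 and 16189859 counts in the GFAP group. All 51 members passed edgeR's expression filter, which left 16187 genes, and the lowest count of any member in any library was 15. Levels are given as CPM, read counts put on 1 common library size by edgeR's TMM factors. NG2 replicate 5 had reads for 18903 genes, against 22988 to 24444 in the other 9 libraries, and it was the lowest of the 10 libraries for 27.4% of tested genes. Radial glial markers Sox2, Pax6, Nes and Vim were found in every library. The neuronal gene Neurod6 stood at 1391 to 2556 CPM in NG2 libraries and 1402 to 1973 CPM in GFAP libraries, so the libraries held more than stem cells. Reads of Cspg4 numbered 513 over the NG2 libraries and 80 over the GFAP libraries. Those of Gfap, the gene that names the other sort, numbered 6 over the NG2 libraries and 10 over the GFAP libraries. In bulk samples, fewer cells of a type and less RNA per cell cannot be told apart.

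The upstream sequence of these genes is shown first because most of them were high in the same library, but its part in that was not tested. RefSeq promoter windows (GRCm38.p6, 250 bases before to 50 after each gene start) were given for 42 of the 51 members, in 51 windows. E2F-like letters were searched as TTTGGCGC, TTTCGCGC, TTTCCCGC and TTTGCCGC on both strands. They stood in 17 of these windows (33.3%), against 2.27% of all 32851 windows. The letters CCAAT, searched on both strands, stood in 62.7% of member windows and 37.4% of all windows. The letters TTTGAA, known as CHR in genes of mitosis, stood in 11.8% of member windows and 17.9% of all windows. A match is a description of letters, not of a bound site. The stretches that follow come from 6 members, of which Cdc6 and Mcm5 were chosen after their values were seen. Stretches were taken only from windows that held E2F-like letters, and the windows of Mcm10, Rfc1 and Rrm2 held none. The 6 were picked among members with such letters. Dtl and Orc1 were taken for their estimates between the groups, and the others for their level in GFAP replicate 2. Mcm3 and Cdt1 also held such letters and were high in that library, but are not printed. Each is printed 5′ to 3′ on the gene's strand, with the E2F-like letters in capitals.
Cdc6: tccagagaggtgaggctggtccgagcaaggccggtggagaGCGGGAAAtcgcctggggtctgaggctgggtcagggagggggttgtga
Mcm5: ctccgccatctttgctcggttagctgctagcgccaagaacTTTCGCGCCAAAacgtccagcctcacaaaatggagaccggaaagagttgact
Mcm6: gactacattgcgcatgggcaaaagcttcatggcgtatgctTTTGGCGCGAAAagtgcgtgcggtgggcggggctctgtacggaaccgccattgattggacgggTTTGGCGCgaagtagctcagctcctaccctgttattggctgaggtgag
Orc1: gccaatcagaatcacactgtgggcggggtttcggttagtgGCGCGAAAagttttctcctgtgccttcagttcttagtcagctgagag
Uhrf1: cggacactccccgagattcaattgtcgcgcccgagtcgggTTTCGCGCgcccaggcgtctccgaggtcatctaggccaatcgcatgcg
Dtl: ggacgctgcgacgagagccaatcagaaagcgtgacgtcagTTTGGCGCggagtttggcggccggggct
The Cdc6 stretch lies at chr11:98907973-98908060 on the plus strand, Mcm5 at chr8:75109316-75109407 plus, and Mcm6 at chr1:128359705-128359855 minus. The Orc1 stretch lies at chr4:108579387-108579473 plus, Uhrf1 at chr17:56304088-56304175 plus, and Dtl at chr1:191575525-191575592 minus. In Mcm5, and in the first block of Mcm6, matches on both strands overlap in 1 run of capitals. The Uhrf1 letters come from 1 of its 2 RefSeq windows, and the other held none.

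No replication gene passed the test between NG2 and GFAP cells when all 10 libraries were compared, although most had a lower estimate in NG2. By edgeR's quasi-likelihood test with Benjamini-Hochberg adjustment over all tested genes, 0 of the 51 members were higher and 0 lower at an adjusted p of 0.05. Over all 16187 genes, 12 (0.0741%) were higher and 12 (0.0741%) lower. The smallest adjusted p of a member by edgeR was 0.130, for Dtl. At an unadjusted p under 0.05, 6 members were lower (11.8%), against 6.33% of all tested genes, and 0 members were higher. These 6 were Dtl, Mcm10, Rfc1, Orc2, Msh6 and Uhrf1, of which Orc2 and Msh6 were chosen after their values were seen. The estimate was negative for 46 members and positive for 5, with a median log2 fold change of -0.18, against -0.01 over all tested genes. Single estimates ran from -0.81 for Orc1 to 0.08 for Rpa3, with standard errors of 0.0909 to 0.391. The Wald test of DESeq2 (Benjamini-Hochberg) did call some members: 3 were lower and 0 higher, against 1.03% lower among all genes given an adjusted p. The authors' deposited table gave 2 members lower and 0 higher at its adjusted p of 0.05, and 129 of the 28533 genes to which it gives a p-value were lower (0.452%). That base includes genes by their unadjusted p, unlike the DESeq2 base, so the shares cannot be compared. Over the members, log2 fold changes of DESeq2 and of the deposited table differed by at most 1.69e-06, so these are nearly the same analysis. Since both counts rest on the same libraries as the edgeR count, they are other readings of it and not repeats.

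The library GFAP replicate 2 stood apart from the other 9 in these genes. Summed over the 51 members, expression was 5088, 4893, 4767, 5700 and 5989 CPM in NG2 replicates 1 to 5. In GFAP replicates 1 to 5 it was 5286, 8925, 5146, 5417 and 5272 CPM. GFAP replicate 2 lay above every other library, while the other 4 GFAP libraries lay inside the range of the NG2 libraries. The group means were 5287 ± 531 CPM in NG2 and 6009 ± 1633 CPM in GFAP (SD, n = 5 each), and the GFAP mean without replicate 2 was 5280 ± 111 CPM (SD, n = 4). GFAP replicate 2 was the highest of the 10 libraries for 50 of the 51 members (98.0%), against 14.4% of all tested genes. The exception was Pola1, the catalytic subunit of polymerase alpha and chosen after its values were seen, which was highest in NG2 replicate 5. In GFAP replicate 2, 34 members (66.7%) reached at least 1.5 times the mean of the other 4 GFAP libraries, against 6.68% of all tested genes. The median ratio of that kind was 1.65 over the members and 0.988 over all tested genes, and it ranged from 1.21 for Orc2 to 2.18 for Cdc6.

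**Figure D1:**
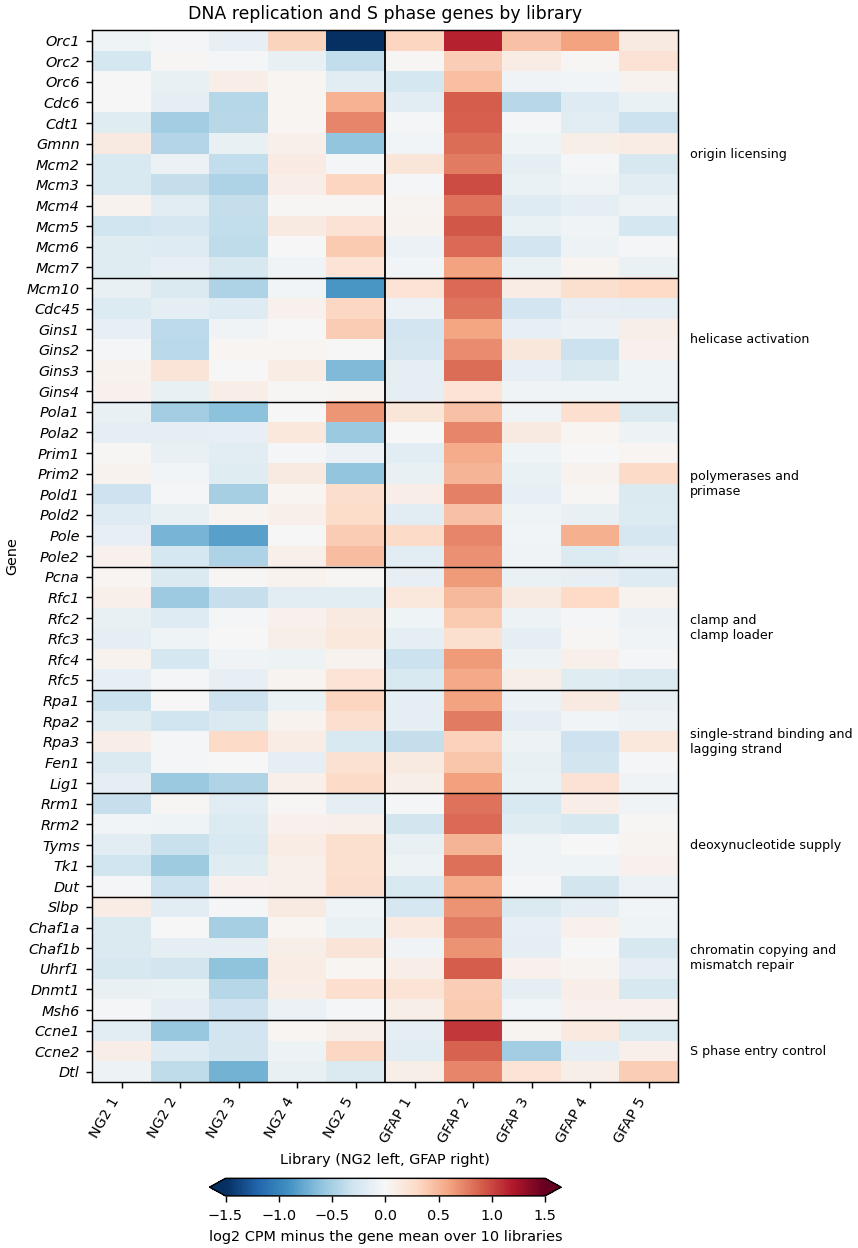
Rows are the 51 genes in 8 roles and columns the 10 libraries, NG2 left of GFAP; colour is log2 CPM minus the gene's mean over the libraries, with colours capped at both ends. The column of GFAP replicate 2 is the highest for 50 of the 51 genes, and Orc1 in NG2 replicate 5 is the lowest single cell.

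Without GFAP replicate 2, the estimates were spread on both sides of 0. Of the members, 26 had a negative and 25 a positive log2 fold change, with a median of -0.0032, against 0.0027 over all tested genes. By edgeR with Benjamini-Hochberg adjustment, 0 members passed in either direction and 0 of all genes were lower (0% of those tested). At an unadjusted p under 0.05, 4 members were lower (7.84%: Dtl, Mcm10, Rfc1 and Orc2), a share near the 7.34% of all tested genes, and 0 members were higher. Leaving out NG2 replicate 5 as well gave 33 negative and 18 positive members with a median of -0.07, and 0 of them passed by edgeR.

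**Figure D2:**
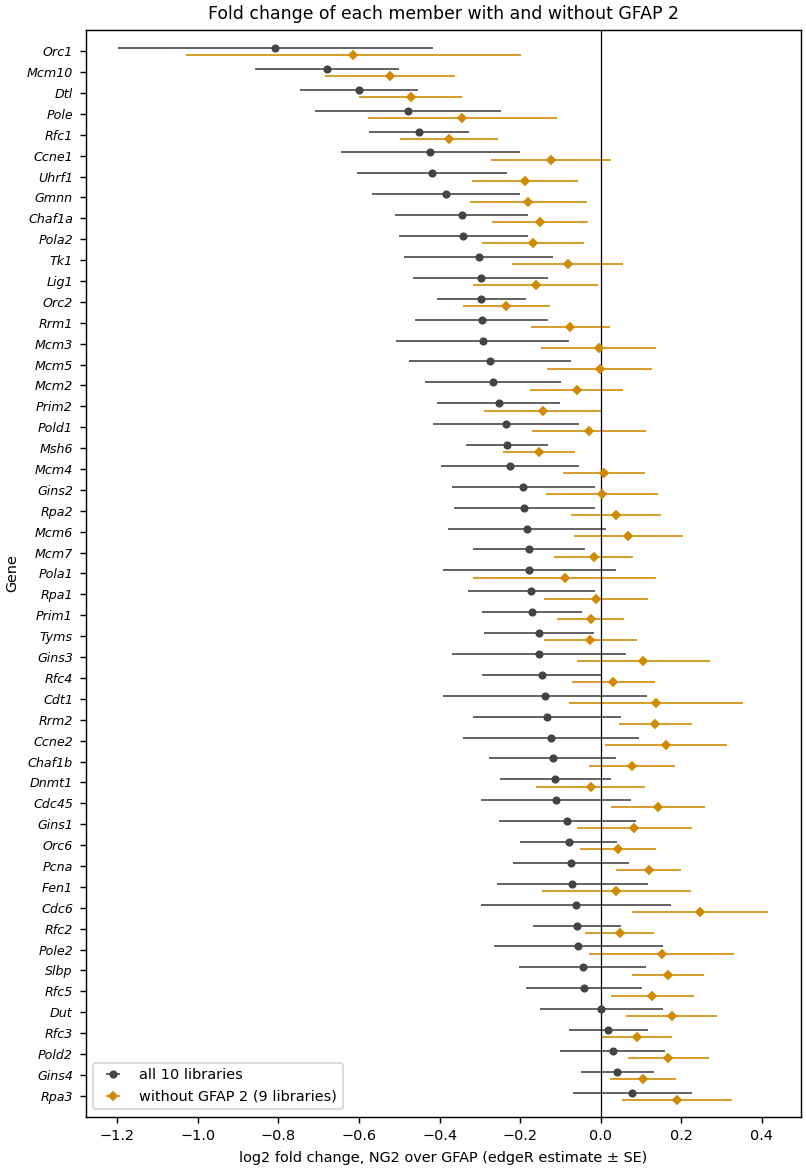
Points are edgeR log2 fold changes, NG2 over GFAP, with bars for 1 SE, for each gene with all 10 libraries (circles) and without GFAP replicate 2 (diamonds). With all libraries 46 of 51 circles lie below 0; without that library 26 of 51 diamonds do, and Dtl, Mcm10, Rfc1 and Orc1 remain on the negative side.

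Dtl and Mcm10 were the members whose NG2 libraries all lay below all GFAP libraries. That is 2 of 51 (3.92%), against 1.76% of all tested genes, and 0 members lay the other way round. Dtl encodes the substrate receptor of a CUL4 ubiquitin ligase that destroys CDT1 on replicating DNA and so guards against copying the genome again. Dtl (ENSMUSG00000037474, chromosome 1, 191537356 to 191575544, minus strand, GRCm38) stood at 71.2, 57.5, 45.9, 69.6 and 64.4 CPM in NG2 libraries, against 79.9, 125, 86.6, 79.4 and 96.8 CPM in GFAP libraries. The highest NG2 library lay below the lowest GFAP library, and GFAP replicate 2 was again the highest. The log2 fold change of Dtl was -0.60 (SE 0.15, edgeR, Benjamini-Hochberg adjusted p = 0.130), and it was -0.47 (SE 0.13, adjusted p = 0.169) without GFAP replicate 2. DESeq2 called it lower at an adjusted p of 0.0150 with all libraries, and the authors' deposited table, nearly the same analysis, gave 0.0156.

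MCM10 binds the loaded helicase and is needed for origins to fire. Mcm10 (ENSMUSG00000026669, chromosome 2, 4989714 to 5012791, minus strand) stood at 22.4, 20.7, 17.5, 23.5 and 13.2 CPM in NG2 libraries, against 27.9, 43.6, 26, 28.4 and 29.5 CPM in GFAP libraries. The groups did not overlap, with NG2 replicate 5 the lowest and GFAP replicate 2 the highest library. Its log2 fold change was -0.68 (SE 0.18, edgeR, Benjamini-Hochberg adjusted p = 0.155), and -0.52 without GFAP replicate 2 (adjusted p = 0.198). DESeq2 called Mcm10 lower (adjusted p = 0.0229), and the nearly identical deposited comparison gave an adjusted p of 0.0239. Rfc1, the large subunit of the complex that loads PCNA, was the third member that DESeq2 called, at an adjusted p of 0.0495. The authors' deposited table placed Rfc1 just past its threshold, at 0.0517. Rfc1 (ENSMUSG00000029191, chromosome 5, 65261850 to 65335670, minus strand) stood at 55.5, 36.3, 41.4, 47.2 and 47.1 CPM in NG2 libraries, against 59, 74.2, 58.1, 64.7 and 54.9 CPM in GFAP libraries. NG2 replicate 1 overlapped the GFAP range by lying just above GFAP replicate 5. The log2 fold change of Rfc1 was -0.45 (SE 0.12, edgeR, Benjamini-Hochberg adjusted p = 0.174), and -0.38 without GFAP replicate 2 (adjusted p = 0.217).

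All 12 origin licensing genes had a negative estimate, with a median log2 fold change of -0.25 that was -0.0042 without GFAP replicate 2. ORC1 is the subunit of the origin recognition complex that is loaded and removed with the cell cycle. Orc1 (ENSMUSG00000028587, chromosome 4, 108579423 to 108614833, plus strand) stood at 5.59, 5.78, 5.35, 7.34 and 0.845 CPM in NG2 libraries, against 7.32, 13, 7.89, 8.89 and 6.4 CPM in GFAP libraries. NG2 replicate 5, with the 15 reads named above as the lowest count of any member, was far below the rest, and the groups overlapped through NG2 replicate 4. The largest negative estimate among the members was that of Orc1, at -0.81 (SE 0.39, edgeR, Benjamini-Hochberg adjusted p = 0.406). It was -0.53 without NG2 replicate 5 and -0.61 without GFAP replicate 2. Of its exonic bases, 10.8% are shared with Gm12743 on the opposite strand, so its reads are uncertain in part.

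The 6 subunits of the MCM2-7 ring were high in GFAP replicate 2 together. Mcm6 had 201, 199, 175, 226 and 298 CPM in NG2 libraries, against 214, 409, 186, 216 and 224 CPM in GFAP libraries. Mcm7 had 338, 351, 324, 369 and 443 CPM in NG2 libraries, against 373, 584, 357, 394 and 357 CPM in GFAP libraries. For both, GFAP replicate 2 was the highest library and NG2 replicate 5 came next, and the remaining 8 libraries of both groups overlapped. Their log2 fold changes were -0.18 (SE 0.20) for Mcm6 and -0.18 (SE 0.14) for Mcm7 (edgeR, Benjamini-Hochberg adjusted p = 0.737 and 0.634). Without GFAP replicate 2, that of Mcm6 was 0.07 and that of Mcm7 -0.02. Mcm7 shares 12.6% of its exonic bases with other genes. Among licensing genes chosen after their values were seen, the ratio of GFAP replicate 2 to the other GFAP libraries was 2.18 for Cdc6, 2.09 for Mcm3, 2.04 for Cdt1 and 2.03 for Mcm5. CDC6 and CDT1 are the loaders of the ring.

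Cdt1 and its inhibitor Gmnn (geminin) were also set side by side after their values were seen. Cdt1 had 42.3, 33.5, 36, 48.9 and 80 CPM in NG2 libraries, against 47, 89.5, 47.1, 43 and 38.5 CPM in GFAP libraries. Gmnn had 59.9, 40.1, 50.7, 57.6 and 36.3 CPM in NG2 libraries, against 53.1, 97.1, 52.4, 57.8 and 58.7 CPM in GFAP libraries. Both genes were high in GFAP replicate 2, whereas in NG2 replicate 5 Cdt1 was high and Gmnn low. The ratio of Cdt1 to Gmnn CPM was 0.706, 0.834, 0.711, 0.849 and 2.20 in NG2 replicates 1 to 5, and 0.655 to 0.921 in the GFAP libraries. Apart from NG2 replicate 5, the ratios of the groups overlapped. CPM is not scaled to gene length, so this ratio can be compared between libraries but not read as a ratio of transcripts.

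Of the 6 genes of helicase activation, 5 had a negative estimate, and the median of -0.13 was 0.09 without GFAP replicate 2. CDC45 is a core subunit of the active helicase. Cdc45 had 62.1, 64.9, 62.5, 74.6 and 88.4 CPM in NG2 libraries, against 67.1, 125, 58.4, 65.6 and 64.8 CPM in GFAP libraries. Gins4, a subunit of the GINS complex, had 86.5, 76.6, 88.5, 83.7 and 85.1 CPM in NG2 libraries, against 75, 95.5, 79.8, 79.4 and 79 CPM in GFAP libraries. GFAP replicate 2 was the highest library for both, and for Gins4 4 of the NG2 libraries lay above the remaining GFAP libraries. In edgeR's fit, the log2 fold change was -0.11 (SE 0.19) for Cdc45 and 0.04 (SE 0.09) for Gins4 (edgeR, Benjamini-Hochberg adjusted p = 0.850 and 0.893). Without GFAP replicate 2 that of Cdc45 was 0.14 and that of Gins4 0.10.

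The polymerases and primase had 7 negative estimates among 8, a median log2 fold change of -0.21 and a median of -0.06 without GFAP replicate 2. POLE is the catalytic subunit of the polymerase that copies the leading strand. Pole had 26.1, 17.6, 16.3, 28.5 and 37.2 CPM in NG2 libraries, against 34.9, 47.4, 27.9, 41.2 and 24 CPM in GFAP libraries. NG2 replicates 2 and 3 were the lowest, and the groups overlapped. Its log2 fold change was -0.48 (SE 0.23, edgeR, Benjamini-Hochberg adjusted p = 0.404). Pold2, an accessory subunit of polymerase delta, had 100, 106, 118, 121 and 139 CPM in NG2 libraries, against 102, 156, 109, 106 and 99.5 CPM in GFAP libraries, with a log2 fold change of 0.03 (SE 0.13). Prim1, the catalytic subunit of primase, had 98.2, 90, 87.3, 95.3 and 91.2 CPM in NG2 libraries, against 86.9, 143, 92.9, 97.4 and 99.5 CPM in GFAP libraries. GFAP replicate 2 was the highest library for both genes, and the other libraries of the groups overlapped. Without it, the log2 fold change was 0.17 for Pold2 and -0.03 for Prim1.

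The clamp and clamp loader genes had the median closest to 0 of the 8 roles, at a log2 fold change of -0.07 over 6 genes and 0.07 without GFAP replicate 2. PCNA is the ring that holds the polymerases on DNA. Pcna had 231, 194, 230, 235 and 229 CPM in NG2 libraries, against 208, 352, 211, 207 and 199 CPM in GFAP libraries. In NG2, 4 libraries lay within a few CPM of each other and replicate 2 was low, while 4 GFAP libraries lay between that low value and the rest of NG2, and GFAP replicate 2 stood far above. Its log2 fold change was -0.07 (SE 0.14, edgeR, Benjamini-Hochberg adjusted p = 0.873), and 0.12 without GFAP replicate 2 (adjusted p = 0.540). A pseudogene that is counted on its own, Pcna-ps2, had 1072 reads over the 10 libraries, so some reads may have been split between the copies. Rfc2, a clamp loader subunit with 15.1% of its exonic bases shared with another gene, had 158, 149, 168, 178 and 186 CPM in NG2 libraries, against 162, 223, 162, 166 and 161 CPM in GFAP libraries. The remaining 9 libraries of Rfc2 overlapped, and its log2 fold change was -0.06 (SE 0.11), or 0.05 without GFAP replicate 2.

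Of the 5 genes for single-strand binding and the lagging strand, 4 had a negative estimate, with a median log2 fold change of -0.17 and 0.04 without GFAP replicate 2. RPA2 is a subunit of the complex that coats single-stranded DNA. Rpa2 had 96.9, 89.5, 94.8, 114 and 131 CPM in NG2 libraries, against 100, 189, 99.3, 107 and 104 CPM in GFAP libraries. Lig1, the ligase that joins Okazaki fragments, had 107, 80.3, 86.2, 124 and 144 CPM in NG2 libraries, against 125, 181, 110, 136 and 114 CPM in GFAP libraries. NG2 replicates 2 and 3 were the lowest for Lig1, and GFAP replicate 2 the highest for both. Their log2 fold changes were -0.19 (SE 0.17) for Rpa2 and -0.30 (SE 0.17) for Lig1 (edgeR, Benjamini-Hochberg adjusted p = 0.692 and 0.482). Rpa2 was at 0.04 and Lig1 at -0.16 on this scale without GFAP replicate 2. Fen1, the flap endonuclease, was chosen after its values were seen, because 84.2% of its exonic bases are shared with genes on the opposite strand. Its 6.41 to 8.73 CPM in NG2 libraries and 6.16 to 9.92 CPM in GFAP libraries are therefore uncertain.

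Among the 5 genes of deoxynucleotide supply, 4 had a negative estimate, with a median log2 fold change of -0.15 and -0.03 without GFAP replicate 2. Rrm2, the regulatory subunit of ribonucleotide reductase that is made in S phase, had 478, 469, 426, 515 and 516 CPM in NG2 libraries, against 407, 885, 432, 416 and 498 CPM in GFAP libraries. Rrm1, the catalytic subunit, had 235, 301, 265, 300 and 269 CPM in NG2 libraries, against 294, 525, 255, 320 and 288 CPM in GFAP libraries. Tk1, the thymidine kinase of dividing cells, had 62.6, 53.3, 67.6, 80.9 and 90.5 CPM in NG2 libraries, against 73.1, 137, 74, 73.5 and 80.7 CPM in GFAP libraries. All 3 were highest in GFAP replicate 2 and otherwise overlapped between the groups. Their log2 fold changes were -0.13 (SE 0.18) for Rrm2, -0.30 (SE 0.16) for Rrm1 and -0.30 (SE 0.19) for Tk1 (edgeR, Benjamini-Hochberg adjusted p = 0.804, 0.476 and 0.525). Rrm2 was at 0.14, Rrm1 at -0.08 and Tk1 at -0.08 on this scale without GFAP replicate 2.

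All 6 genes of chromatin copying and mismatch repair had a negative estimate, with a median log2 fold change of -0.18 and -0.09 without GFAP replicate 2. UHRF1 reads hemimethylated DNA behind the fork and brings in the maintenance methyltransferase DNMT1. Uhrf1 had 138, 135, 107, 177 and 166 CPM in NG2 libraries, against 175, 307, 170, 167 and 148 CPM in GFAP libraries. NG2 replicates 1 to 3 lay below all GFAP libraries, and NG2 replicates 4 and 5 lay inside their range. Its log2 fold change was -0.42 (SE 0.19, edgeR, Benjamini-Hochberg adjusted p = 0.367), and -0.19 without GFAP replicate 2. Slbp, which binds the stem-loop of replication-dependent histone mRNAs, had 184, 152, 166, 188 and 163 CPM in NG2 libraries, against 143, 271, 146, 154 and 166 CPM in GFAP libraries. Its log2 fold change was -0.04 (SE 0.16), and 0.17 without GFAP replicate 2.

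The 3 genes that control S phase entry had negative log2 fold changes, whose median was -0.42, or -0.12 without GFAP replicate 2. Beside Dtl, these are the E-type cyclins, which activate CDK2 at the start of S phase. Ccne2 had 35.6, 29.1, 27.4, 31.4 and 41.3 CPM in NG2 libraries, against 29.7, 61.5, 23.1, 30.3 and 34.9 CPM in GFAP libraries. Ccne1, chosen after its values were seen, had 25.3, 18.9, 23.1, 28.9 and 29.9 CPM in NG2 libraries, against 25.5, 59, 28.9, 31.2 and 24.4 CPM in GFAP libraries. In both cyclins GFAP replicate 2 stood above the other 9 libraries, which overlapped between the groups, at 2.08 times the other GFAP libraries for Ccne2 and 2.14 times for Ccne1. Log2 fold changes were -0.12 (SE 0.22) for Ccne2 and -0.42 (SE 0.22) for Ccne1 (edgeR, Benjamini-Hochberg adjusted p = 0.858 and 0.447). Ccne2 was at 0.16 and Ccne1 at -0.12 on this scale without GFAP replicate 2. Ccne2 shares 17.4% of its exonic bases with another gene.

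In GFAP replicate 2 the members of all 8 roles were high, and the shares of the roles in the summed CPM shifted by small amounts. The licensing genes took 27.2% to 30.01% of the summed CPM of the 51 members in NG2 libraries, 30.6% in GFAP replicate 2 and 28.0% to 30.02% in the other GFAP libraries. The deoxynucleotide genes took 20.9% to 22.3% in NG2 libraries, 22.5% in GFAP replicate 2 and 19.99% to 22.4% in the other GFAP libraries. Clamp and clamp loader genes took 13.4% to 15.5% in NG2 libraries, 12.1% in GFAP replicate 2 and 13.1% to 14.2% in the other GFAP libraries. Polymerase and primase genes took 8.67% to 9.01% in NG2 libraries, 8.27% in GFAP replicate 2 and 8.72% to 9.23% in the other GFAP libraries. Helicase activation genes took 4.86% to 5.59% in NG2 libraries, 4.73% in GFAP replicate 2 and 4.79% to 5.22% in the other GFAP libraries. The share in GFAP replicate 2 was above all other libraries for licensing and deoxynucleotide genes, and below all of them for clamp, polymerase and helicase activation genes. In the other 3 roles it lay inside the range of the other libraries. The median ratio of GFAP replicate 2 to the other GFAP libraries was 1.76 for the 17 members with E2F-like letters, 1.63 for the 25 members with windows that held none, and 1.604 for the 9 members with no window given.

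NG2 replicate 5 had another pattern. It was the highest library for 1 member and the lowest for 7. Over all 16187 tested genes it was the highest for 3204 and the lowest for 4437 (27.4%). Compared with the mean of the other 4 NG2 libraries, 39 members were above and 12 below, with a median ratio of 1.19 against 0.970 over all tested genes. The members furthest from 1 were chosen after their values were seen. The ratio was 1.99 for Cdt1, 1.94 for Pola1 and 1.68 for Pole, and 0.140 for Orc1, 0.594 for Gins3, 0.628 for Mcm10 and 0.666 for the primase subunit Prim2. Subunits of 1 complex thus went different ways there, with Pola1 above and Prim2 below 1, while in GFAP replicate 2 every member was above the mean of the other GFAP libraries.

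**Figure D3:**
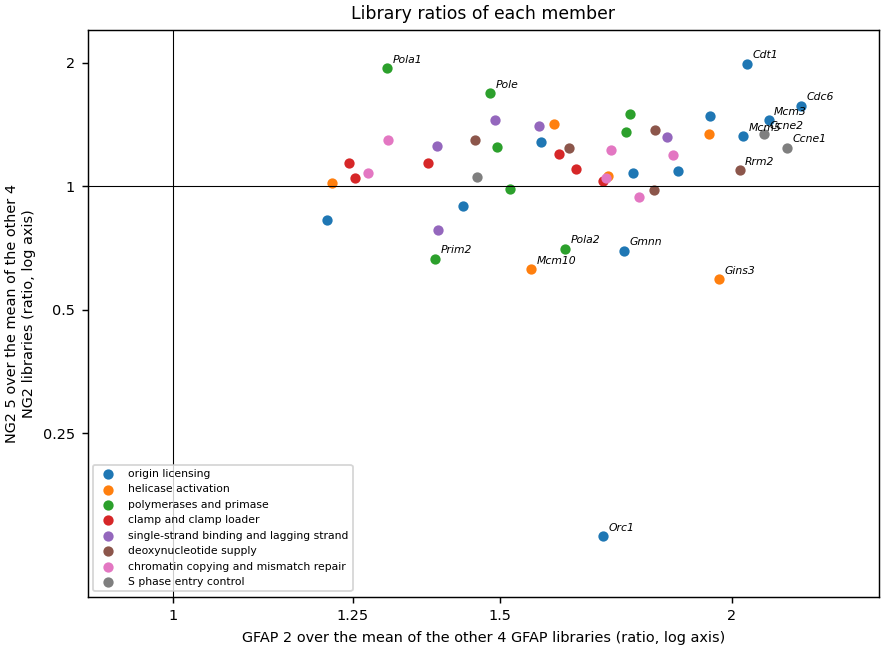
Each point is 1 of the 51 genes, coloured by role; the x axis is GFAP replicate 2 over the mean of the other 4 GFAP libraries and the y axis NG2 replicate 5 over the mean of the other 4 NG2 libraries, both as ratios on log axes. All points lie right of 1, from 1.21 to 2.18, while 39 lie above and 12 below 1 on the y axis, with Orc1 at 0.140.

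Markers of proliferation and of cell types moved with GFAP replicate 2. Genes of G2 and mitosis summed to 5640 to 7234 CPM in NG2 libraries, 10759 CPM in GFAP replicate 2 and 6520 to 7197 CPM in the other GFAP libraries, and 43 of 46 were highest in GFAP replicate 2. Radial glia genes summed to 2001 to 2991 CPM in NG2 libraries, 4234 CPM in GFAP replicate 2 and 2928 to 3254 CPM in the other GFAP libraries. Of these, 14 of 20 tested were highest in GFAP replicate 2, and Pdpn was at 0 in all libraries. Neuron genes went the other way, at 7984 to 11370 CPM in NG2 libraries, 6176 CPM in GFAP replicate 2 and 7620 to 8087 CPM in the other GFAP libraries, with 0 of 21 highest in GFAP replicate 2. Intermediate progenitor genes summed to 3032 to 3466 CPM in NG2 libraries, 3836 CPM in GFAP replicate 2 and 3465 to 3613 CPM in the other GFAP libraries, with 5 of 16 highest in GFAP replicate 2. Over all tested genes, 14.4% were highest in GFAP replicate 2. The estimates of these markers kept their side of 0 without GFAP replicate 2, as medians over each list. Radial glia genes had 18 negative and 2 positive estimates among 20, with a median log2 fold change of -0.36, and -0.22 without that library. Neuron genes had 1 negative and 20 positive estimates among 21, with a median of 0.35, and 0.26 without it. Intermediate progenitor genes had 11 negative and 5 positive estimates, with a median of -0.14, and -0.08 without it. By edgeR 0 genes of these 3 lists passed in either direction. DESeq2 called 6 radial glia genes and 3 intermediate progenitor genes lower and 7 neuron genes higher. Over all 13006 genes given an adjusted p, DESeq2 called 134 lower (1.03%) and 212 higher. The part of these markers in the level of the replication genes was not tested.

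Set against the genes of G2 and mitosis, the replication genes of GFAP replicate 2 lay inside the range of the other libraries. The ratio of the summed CPM of the 51 members to that of the 46 mitosis genes was 0.794 to 0.845 in NG2 libraries, 0.830 in GFAP replicate 2 and 0.733 to 0.789 in the other GFAP libraries. GFAP replicate 2 thus lay inside the NG2 range, and the other 4 GFAP libraries lay below every NG2 library. This ratio was formed after the values were seen and was not tested. The ratio to the radial glia genes was 1.71 to 2.45 in NG2 libraries, 2.11 in GFAP replicate 2 and 1.58 to 1.85 in the other GFAP libraries.

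**Figure D4:**
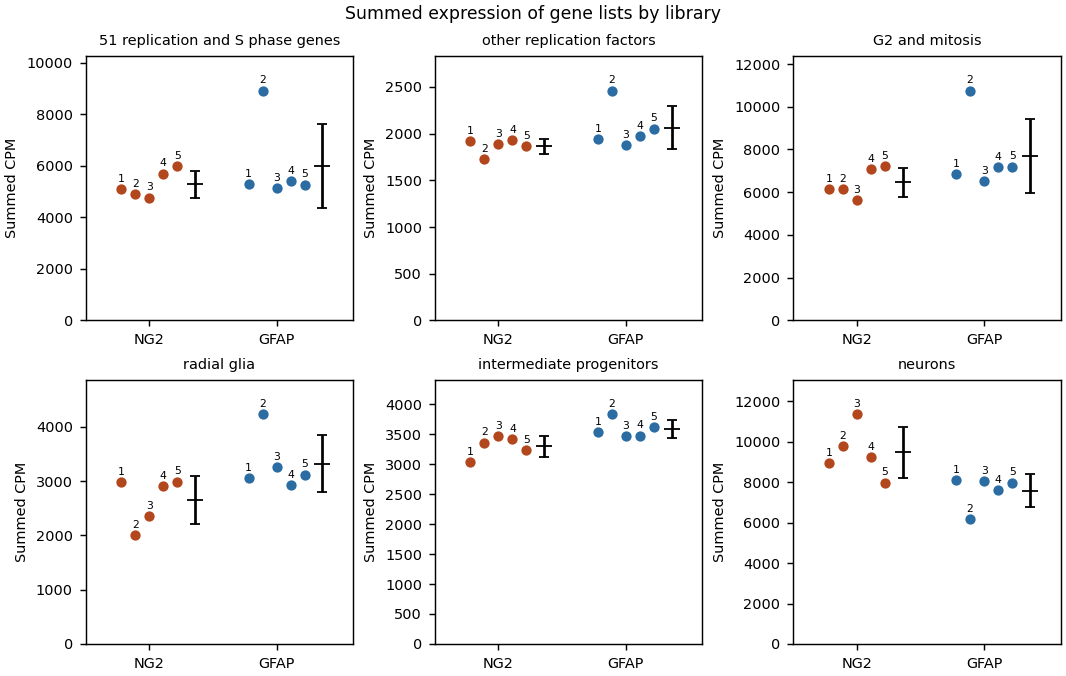
Each panel gives the summed CPM of 1 gene list, NG2 left of GFAP; points are libraries with their replicate number, and the bar beside each group is mean ± SD (n = 5). GFAP replicate 2 is the highest point for the 51 replication genes (8925 CPM), for G2 and mitosis (10759 CPM) and for radial glia (4234 CPM). It is also the highest for other replication factors (2462 CPM) and intermediate progenitors (3836 CPM), and the lowest for neurons (6176 CPM).

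Other genes of the pathway also had mostly negative estimates. Of 28 tested further replication factors, 24 had a negative and 4 a positive estimate, with a median log2 fold change of -0.19, and -0.06 without GFAP replicate 2. By edgeR 0 passed the Benjamini-Hochberg threshold in either direction. DESeq2 called 1 lower, against 1.03% of all genes given an adjusted p. In this list 20 genes were highest in GFAP replicate 2, against 14.4% of all tested genes. The median ratio of GFAP replicate 2 to the other GFAP libraries was 1.39 over the list. For 3 of the 28, Ticrr, Topbp1 and Dbf4, chosen after their values were seen, all NG2 libraries lay below all GFAP libraries, against 1.76% of all tested genes. Their partners in origin firing did overlap between the groups, with log2 fold changes of -0.06 for Mtbp, which binds TICRR, and -0.26 for Cdc7, the kinase that DBF4 activates. Ticrr, which brings CDC45 to origins, had 24.6, 17.9, 15.4, 27.4 and 26.3 CPM in NG2 libraries, against 35.6, 42.6, 36.4, 30.5 and 33 CPM in GFAP libraries. Its log2 fold change was -0.67 (SE 0.16, edgeR, Benjamini-Hochberg adjusted p = 0.132). Dbf4, the activator of the CDC7 kinase, had 55.5, 48.8, 54.2, 55 and 53.6 CPM in NG2 libraries, against 57, 86.8, 62.2, 61 and 64.9 CPM in GFAP libraries, with a log2 fold change of -0.31 (SE 0.12).

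Replication checkpoint and fork protection genes had 19 negative and 2 positive estimates among 21, with a median log2 fold change of -0.24, and -0.12 without GFAP replicate 2. Among 26 genes of G1 control and E2F, 20 estimates lay below 0 and 6 above it, and the median was -0.22, or -0.14 without that library. For 2 of these 26 genes all NG2 libraries lay below all GFAP libraries, against 1.76% of all tested genes. E2f3, an activator of the E2F family chosen after its values were seen, was among them, at 12.4 to 20.9 CPM in NG2 and 21.8 to 27.9 CPM in GFAP libraries. Its adjusted p was 0.153 (edgeR, Benjamini-Hochberg). E2f1 and E2f2, of the same family, overlapped between the groups, with log2 fold changes of -0.05 and -0.33. The G2 and mitosis genes had 44 negative and 2 positive estimates, with a median of -0.28, and -0.13 without GFAP replicate 2. In these 3 lists 0 genes passed by edgeR in either direction, while DESeq2 called 1, 1 and 2 lower and 0 higher. Over all genes given an adjusted p, DESeq2 called 1.03% lower. Of 70 replication-dependent histone genes, whose mRNAs mostly lack a poly(A) tail, 34 were tested. They had 19 negative and 15 positive estimates, with a median of -0.05. In this list 10 were highest in GFAP replicate 2, against 14.4% of all tested genes. The libraries were enriched for poly(A) transcripts, per the labels' protocols, so these histone values cover only part of the histone mRNA.

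Between genes, levels can be compared only per length, and the deposited FPKM served for this. Rrm2 had the highest level of the members, at 173 ± 12.8 FPKM in NG2 libraries and 188 ± 72.8 FPKM in GFAP libraries (SD, n = 5 each). Next came Pcna, at 92.8 ± 6.81 FPKM in NG2 and 96.8 ± 27.1 FPKM in GFAP, and Mcm7, at 82 ± 10.2 FPKM in NG2 and 92 ± 21.8 FPKM in GFAP. Pcna and Mcm7 overlapped within their spread. The lowest level was that of Orc1, at 1.43 ± 0.698 FPKM in NG2 and 2.47 ± 0.735 FPKM in GFAP. Levels differed within complexes whose subunits act in equal numbers. Over all 10 libraries the MCM2-7 subunits averaged 30.8 FPKM for Mcm4 to 87.0 FPKM for Mcm7, and the GINS subunits 7.87 FPKM for Gins3 to 60.9 FPKM for Gins4. The catalytic subunit Pole, at 2.67 FPKM, stood below the accessory subunit Pole2 at 5.60 FPKM.

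**Figure D5:**
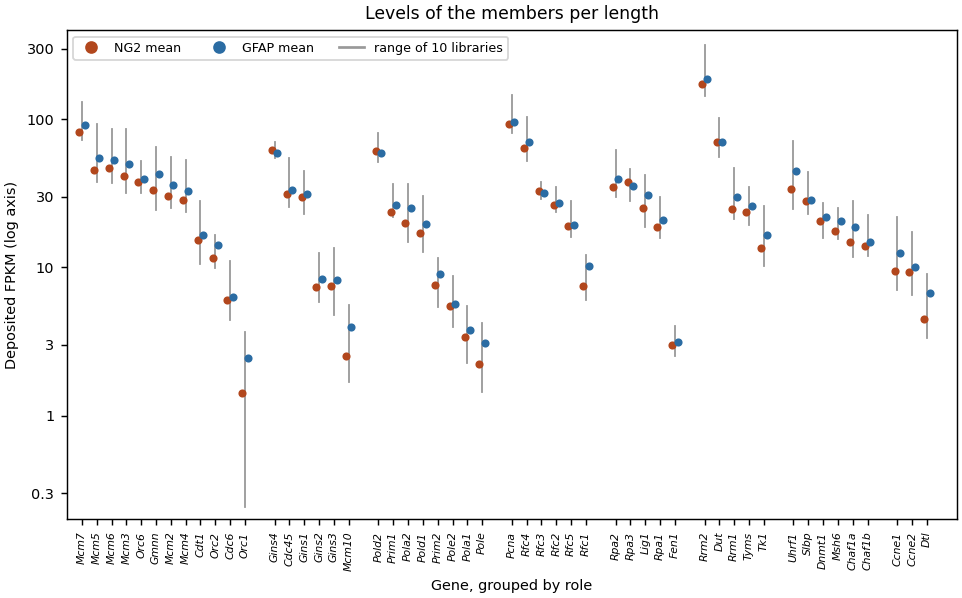
For each gene, grouped by role, points are the mean deposited FPKM of NG2 (left point) and GFAP (right point) libraries and the line spans the lowest and highest of the 10 libraries, on a log axis. Rrm2 is highest with a mean of 180 FPKM over all libraries and Orc1 lowest with 1.95 FPKM.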

How the data were processed

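RNA was extracted, amplified by SMARTer, poly(A)-enriched and sequenced, per the labels' protocols. The submitters' processing notes name HISAT2, featureCounts 1.5.0-p3 and GRCm38.p6. Strand setting, multi-mapping and annotation version were not given in the sources used here. Genes with shared exons (by GENCODE M21) are therefore uncertain. Of the 51 members, 10 shared at least 10% of their exonic bases. The largest shares were those of Fen1 (84.2%), Gins2 (67.3%) and Chaf1a (52.5%). The authors deposited whole-number read counts per gene and FPKM per library. The same deposited table holds the authors' comparison, with a mean signal per group, a log2 fold change and p-values before and after adjustment, from a tool it does not name.

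Counts were tested with edgeR 4.0.16 (R 4.3.3) quasi-likelihood on TMM-scaled libraries, with its default filter by group. Benjamini-Hochberg adjustment ran over the 16187 genes kept. The log2 fold change is NG2 minus GFAP. Alternatives used DESeq2 1.42.0 and limma 3.58.1. The model was run on simulated counts with a common dispersion, genes drawn independently and no library set apart. That run does not cover data with a library like GFAP replicate 2. Counts carry no molecular identifiers, so precision beyond counting depends on the 5 libraries per group.

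The members and lists were chosen with earlier results of these data known. By rule, a member was named if it passed the threshold, if its groups did not overlap, or if in its role it had 1 of the 2 highest mean CPM values or the largest absolute log2 fold change. Lists of other cells gave these results. Microglia genes summed to 37.5 to 501 CPM in NG2 and 59.3 to 227 CPM in GFAP libraries, with 14 of 14 tested higher in estimate in NG2, and 0 past the threshold by edgeR and by DESeq2. Endothelial and pericyte genes summed to at most 46.3 CPM in NG2 and 48.3 CPM in GFAP, meningeal genes to 20.6 CPM in NG2 and 25.9 CPM in GFAP, and oligodendrocyte precursor genes, with Nkx2-2 at 0 throughout, to 29.6 CPM in NG2 and 15.5 CPM in GFAP. Interneuron genes summed to at most 220.1 CPM in NG2 and 221 CPM in GFAP, and erythroid genes to 510 CPM in NG2 and 460.2 CPM in GFAP. Among these lists edgeR called 1 gene, Cspg4.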

Additional observations from a re-analysis of the deposited data

Results flagged for a closer look

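In 17 of 44 groups of 5 libraries (22 quantities in each of 2 groups), 1 library stood apart from its group, by a gap to its nearest neighbour of more than 0.71 of the group's range. Chance gives about 1 in 20 groups. In 16 of the 17 the library was GFAP replicate 2, high each time. Its gap was 0.928 of the GFAP range for the summed CPM of the 51 members. Among licensing and helicase genes it was 0.832 for Mcm6, 0.837 for Mcm7, 0.796 for Mcm10, 0.868 for Cdc45 and 0.763 for Gins4. Among fork genes it was 0.775 for Prim1, 0.827 for Pold2, 0.918 for Pcna, 0.910 for Rfc2 and 0.915 for Rpa2. For nucleotide supply and chromatin it was 0.758 for Rrm1, 0.808 for Rrm2, 0.881 for Tk1, 0.820 for Slbp and 0.826 for Uhrf1. The remaining case was Pcna in NG2 replicate 2, which was low with a gap of 0.850. These genes move together across libraries, so the flags are not separate events.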

How the results depend on the processing

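The count of 0 members by edgeR held under other scalings, a stricter filter, protein-coding genes alone, limma-trend on FPKM and every removal of libraries. Members lower numbered 1 with no filter (Dtl, adjusted p = 0.0455, edgeR, Benjamini-Hochberg), 3 by DESeq2 and 2 by voom with sample weights (Rfc1, 0.0195, and Dtl, 0.0356). All genes higher and lower numbered 58 and 37 of 31106 tested with no filter, and 212 and 134 of 13006 by DESeq2. They numbered 584 and 857 of 16187 by voom, and 19 and 20 of 12930 among protein-coding genes. By voom, 2 of 51 members lower was a smaller share than 857 of 16187 genes. By limma-trend on FPKM with either pseudocount, 3 genes were lower. Leaving out 1 library gave 3 to 70 genes higher and 0 to 47 lower, the highest counts without NG2 replicate 5, and 0 members in each. Without GFAP replicate 2 and NG2 replicate 5 together the counts were 109 and 154. The median of the members ran from -0.24 to -0.0032 over single removals.

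Among the members named by rule, these estimates changed sign. With library size only, Gins4 was -0.0014 and Pold2 -0.011. With voom weights, which gave GFAP replicate 2 a weight of 0.349 and NG2 replicate 5 a weight of 0.170, Mcm6 was 0.019, Cdc45 0.12, Pcna 0.12, Rfc2 0.065, Rpa2 0.048, Rrm2 0.17, Slbp 0.24 and Ccne2 0.064, and the median of the members 0.025. Over all 51 members, voom gave 21 negative and 30 positive estimates, against 46 and 5 by edgeR. On FPKM, Slbp was 0.0076 with a pseudocount of 1 and 0.0089 with 0.1. Without GFAP replicate 2 and NG2 replicate 5, Cdc45 was 0.046, Pcna 0.11, Rfc2 0.0059, Rrm2 0.11, Slbp 0.18 and Ccne2 0.065. Over single removals the estimates ran from -0.31 to 0.069 for Mcm6, -0.20 to 0.14 for Cdc45, -0.12 to 0.12 for Pcna, -0.096 to 0.047 for Rfc2, -0.28 to 0.038 for Rpa2, -0.21 to 0.14 for Rrm2, -0.11 to 0.17 for Slbp, -0.24 to 0.16 for Ccne2 and -0.037 to 0.17 for Pold2. The highest value of each came without GFAP replicate 2. The cause was not tested.

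The replicate numbers did not pair the libraries: deviations of same-numbered NG2 and GFAP libraries correlated at -0.02 to 0.08, and only NG2 replicate 2 correlated best with its own number. A fit with the replicate block gave 1 gene higher and 0 lower, with 0 members, and a median of the members of -0.15. DESeq2 and the authors' deposited table differed by at most 1.69e-06 in log2 fold change over the members.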

Other observations

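The genes with the largest gap between GFAP replicate 2 and the highest of the other 9 libraries, among protein-coding genes with a mean of at least 5 CPM, were not mainly replication genes. They were chosen after their values were seen, and no test was made. Gbp3, a guanylate-binding protein induced by interferon, stood at 23.9 CPM in GFAP replicate 2, which was 3.62 times the highest other library. The interferon-induced genes Oas1a, Irgm1 and Rtp4 stood at 2.31, 2.05 and 2.00 times the highest other library. Plk4, the kinase that starts centriole duplication, stood at 2.396 times, and Fgf15, a growth factor, at 2.31 times. Of the 51 replication genes, Ccne1 came first in this order, at 1.89 times.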
